A study of Mus musculus with 4 samples.

Results

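A group of 9 genes that mark the identity of regulatory T cells was followed through 4 RNA-seq libraries of mouse gut regulatory T cells, and edgeR's quasi-likelihood test called 1 of the 9 where the transcription factor gene Maf was nearly absent. That gene was Ctla4, which fell to 0.554 of its level. DESeq2 called 3 of the 9 (Ctla4, lower, and Ikzf4 and Nrp1, higher), the edgeR likelihood ratio test 2 (Ctla4 and Nrp1) and limma-voom 1 (Ctla4). Among all 13022 tested genes, the quasi-likelihood test called 236 (1.81%), DESeq2 640, the likelihood ratio test 608 and limma-voom 237. The 9 genes (Foxp3, Il2ra, Il2rb, Ctla4, Ikzf2, Ikzf4, Gpr83, Nrp1 and Lrrc32) were taken by symbol from a raw count table of 24061 gene rows; all 9 were present and all 9 passed the filter on low counts.

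Regulatory T cells are CD4 T cells that restrain immune responses, and Foxp3 encodes the transcription factor that defines them. They depend on interleukin 2, which they bind through the receptor chains encoded by Il2ra (CD25) and Il2rb (CD122), and they take costimulatory ligands away from other cells with CTLA-4. Helios (Ikzf2) and Eos (Ikzf4) are zinc finger transcription factors of the Ikaros family found in these cells, neuropilin 1 (Nrp1) and GPR83 are surface receptors, and GARP (Lrrc32) holds latent transforming growth factor beta on the cell surface. In the Peyer's patches, lymphoid follicles of the small intestine, effector regulatory T cells carry c-Maf, the product of Maf.

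The cells were CD4+FoxP3+CD62L- cells sorted from Peyer's patches of 13-week-old mice on a C57BL/6 (N5 backcross) background. All mice carried FoxP3-YFP-cre, which gives cells that use Foxp3 both Cre and a fluorescent protein, so the controls carried it too. By title, 2 libraries came from Maf+/+ mice (labelled wt 1 and wt 2) and 2 from Mafflox/flox mice (labelled flox 1 and flox 2). The study asked which transcripts depend on c-Maf in these cells. Whether the 2 libraries of a group were made from different mice is not said in the labels, and the p-values below therefore cover the spread among these libraries alone, which may be technical.

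The library labels did not match the targeted gene, and this sets how every result is read. Maf had 3071 counts in wt 1 and 2975 in flox 1, but 40 in wt 2 and 15 in flox 2, which is 149, 122, 1.98 and 0.725 CPM (counts scaled to a common library size, with TMM factors). Maf therefore followed the number at the end of the title and not the genotype in it, and the libraries labelled wt 2 and flox 1 went against their labels. Another entry of the labels calls wt 1 and wt 2 both replicate 1, and flox 1 and flox 2 both replicate 2. The authors' deposited normalized values, 42472 in all, matched edgeR pseudo-counts (relative error under 1e-06) for 100% of values when the libraries were grouped by title number and for 3.2% when grouped by labelled genotype. Both comparisons are given below: libraries numbered 2 (Maf low) against libraries numbered 1 (Maf high), and labelled flox against labelled wt. The first was taken up with the Maf counts known, so no p-value is given for Maf in it. Maf stayed among the 13022 tested genes, and so in the counts and shares over all genes. Anything else that the number stands for cannot be told apart from the Maf level.

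Gene totals were 19368745 to 24687897 counts per library. The gate could be checked in part. Cd4 had 920 to 998 CPM and Cd3e had 1239 to 1369.9. Summed B cell markers (8 genes) had 65.9 to 116 CPM and myeloid and dendritic markers (8 of 9 found) had 78.8 to 163. Summed epithelial markers (9 genes) had 172 CPM in wt 1 and 310.2 to 403 in the other libraries, so this signal did not follow the number. The heat shock genes Hspa1a and Hsph1 stood apart in flox 2, at 892 and 691 CPM against at most 103 and 156 elsewhere (Hspa1a can share reads with its near-identical copy Hspa1b). For the identity genes, Ctla4 and Lrrc32 are given below without each library that changes their call by title number.

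Across all 13022 tested genes, edgeR's quasi-likelihood test with Benjamini-Hochberg adjustment called 236 genes (1.81%) at an adjusted p under 0.05 by title number, 52 higher and 184 lower (1.41%) in the libraries numbered 2. Of the 9 identity genes it called 1, Ctla4, which was lower, and 0 higher, where 0.399% of all tested genes were called higher. The libraries numbered 2 lay above those numbered 1 without overlap for 5 of the 9 and below for 1, where 45.2% of all tested genes had no overlap in either direction. Unadjusted p was under 0.05 for 4 of the 9, against 13.6% of all tested genes. By title number DESeq2 called 640 of all genes, the likelihood ratio test 608 and limma-voom 237. The counts for each list below are to be read beside that share and these counts. The median log2 fold change of the 9 genes was 0.08, against 0.01 over all tested genes, and the median absolute change was 0.16 against 0.18. By label the test called 1 of 13022 genes (0.00768%), the pseudogene Gm8615, and 0 of the 9 identity genes; 1 of the 9 (Gpr83) had an unadjusted p under 0.05, and DESeq2, the likelihood ratio test and limma-voom also called 0 of them. Labelled flox lay above labelled wt without overlap for 1 of the 9 and below for 1, where 27% of all tested genes had no overlap.

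**Figure D1:**
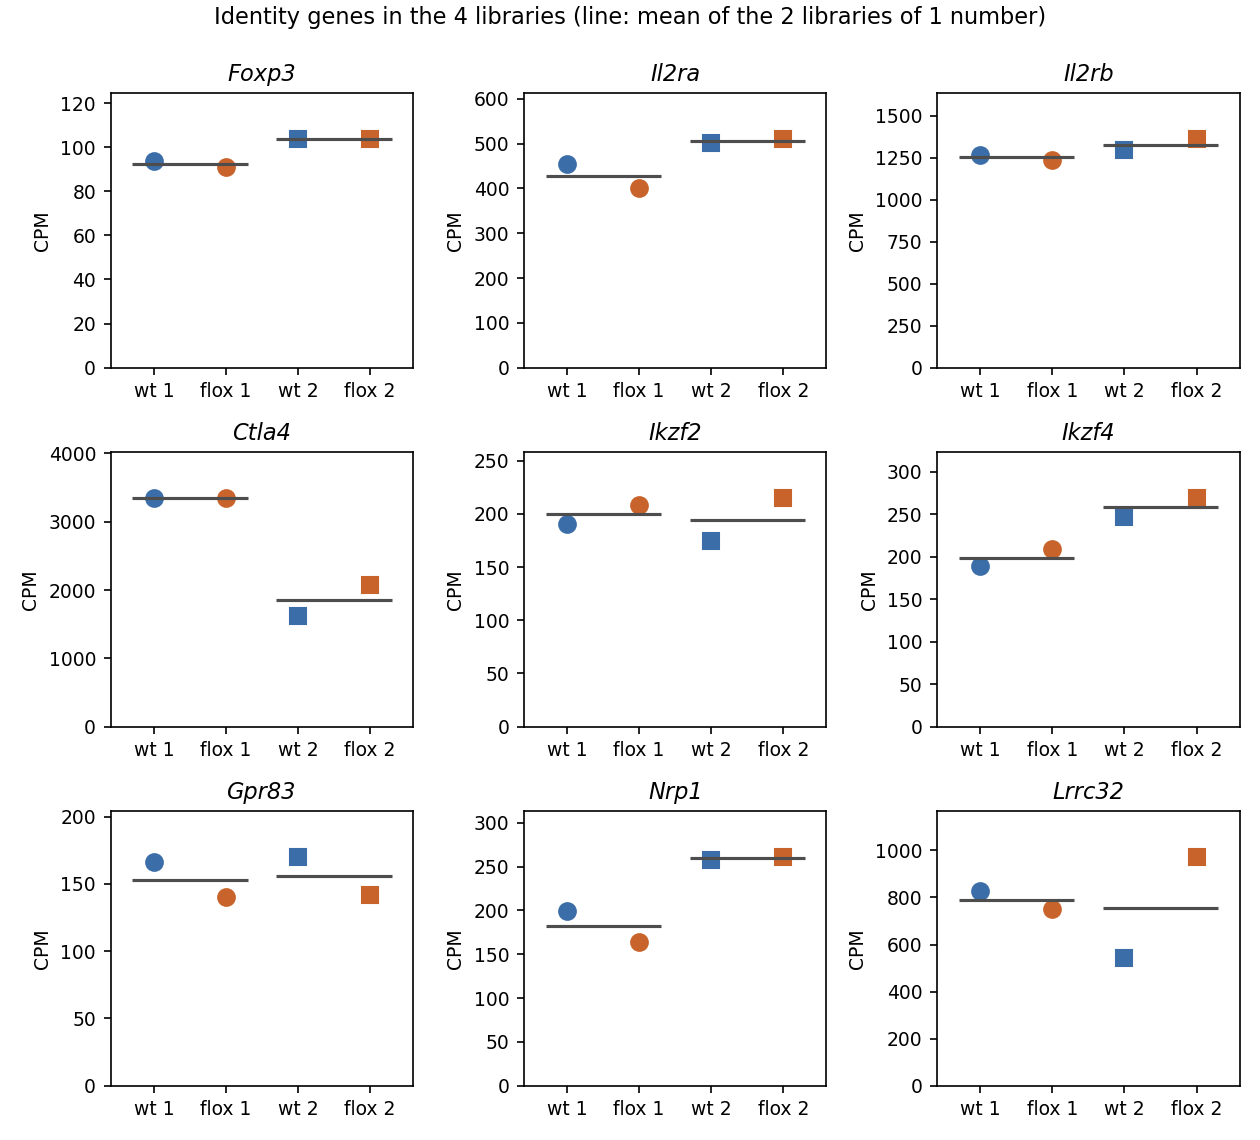
CPM of the 9 identity genes in each library (linear axes from 0). Blue marks are labelled wt, orange marks labelled flox, circles are numbered 1 (Maf high) and squares numbered 2 (Maf low), and lines are means of 2 libraries; Ctla4 is lower in both squares, and Lrrc32 differs most between the 2 squares.

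The genes differed widely in level, compared here as CPM per kilobase of merged annotated exons. Ctla4 was highest at a mean of 1115 over the 4 libraries, followed by Il2rb at 301, Lrrc32 at 165 and Il2ra at 81.8. Ikzf4 (38.1), Gpr83 (30.3), Nrp1 (22.5), Foxp3 (21.4) and Ikzf2 (17.0) were lowest. The ranges over libraries did not overlap between neighbours in the upper part of this order, but they overlapped between Ikzf4 and Gpr83, between Nrp1 and Foxp3, and between Nrp1 and Ikzf2. In bulk RNA, fewer cells with a transcript and less transcript per cell cannot be told apart.

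Promoter windows of RefSeq (GRCm38.p6, from 250 bases before to 50 after an annotated start) were available for 5 of the 9 genes: Foxp3, Il2ra, Ctla4, Gpr83 and Nrp1. They were searched on both strands for TGCTGAC (a half-site of the MAF recognition element), TGANTCA (AP-1, which can overlap the former), GTAAACA (forkhead), GGAAAA (NFAT) and TTCNNNGAA (STAT). Among 32851 windows of 300 bases, 4.67%, 7.81%, 3.65%, 23.4% and 8.30% held each of these. The windows of Ctla4 (the called identity gene), Nrp1 (the largest positive log2 fold change by number among the identity genes not called) and Foxp3 (the lineage gene, the second of 2 entries) are shown. They run 5′ to 3′ on the plus strand, with GGAAAA or its reverse complement in capitals.
Ctla4 chr1:60908775-60909074: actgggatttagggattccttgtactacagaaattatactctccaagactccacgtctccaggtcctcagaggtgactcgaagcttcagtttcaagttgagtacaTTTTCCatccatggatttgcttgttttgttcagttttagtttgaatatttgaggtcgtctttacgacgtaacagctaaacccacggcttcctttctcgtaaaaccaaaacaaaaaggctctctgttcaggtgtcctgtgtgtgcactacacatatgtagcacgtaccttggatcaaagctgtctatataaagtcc
Nrp1 chr8:128358823-128359122: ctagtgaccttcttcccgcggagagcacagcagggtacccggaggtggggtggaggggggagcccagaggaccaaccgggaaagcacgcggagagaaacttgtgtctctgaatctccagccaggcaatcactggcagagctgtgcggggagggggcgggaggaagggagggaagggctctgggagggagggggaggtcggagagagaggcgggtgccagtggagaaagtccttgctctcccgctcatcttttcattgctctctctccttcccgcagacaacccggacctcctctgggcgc
Foxp3 chrX:7580233-7580532: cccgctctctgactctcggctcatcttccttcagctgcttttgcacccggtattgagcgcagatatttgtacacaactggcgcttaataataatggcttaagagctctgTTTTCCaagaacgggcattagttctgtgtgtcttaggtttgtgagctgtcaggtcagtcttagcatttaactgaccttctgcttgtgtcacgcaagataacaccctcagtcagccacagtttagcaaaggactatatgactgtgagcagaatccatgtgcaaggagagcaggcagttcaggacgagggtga
The Ctla4 window held 1 NFAT match, at position -145 from the annotated start, and none of the other 4 motifs. The Nrp1 window held none of the 5. The Foxp3 window shown held an NFAT match at -141, overlapping a STAT match, TTCCAAGAA, at -139. The other Foxp3 entry (chromosome X, 7579426 to 7579725) held none of the 5, and neither did the windows of Il2ra and Gpr83. The half-site TGCTGAC was in none of the windows of the 5 genes, which says only that these letters are not in these windows.

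Foxp3, on chromosome X at 7573644 to 7595245 (mm10, plus strand), was near 100 CPM in all libraries. It had 93.8 CPM in wt 1 and 91.0 in flox 1, against 104 in wt 2 and 104 in flox 2. The libraries numbered 2 were the higher pair without overlap, as they were for 22.7% of all tested genes, but the step was small, from 92.4 ± 1.95 to 104 ± 0.0791 CPM (SD, n = 2). The log2 fold change was 0.16 (SE 0.08, 95% interval -0.04 to 0.37) and was not called (adjusted p = 0.472 by edgeR's quasi-likelihood test). By label it was -0.02 (interval -0.33 to 0.29). The cells were sorted on FoxP3, so this level is not independent of the gate. The annotated exons of Foxp3 share 590 bases with Ccdc22 and 266 with Ppp1r3f on the other strand and 853 with the noncoding gene Flicr on the same strand, and the use of strand in counting is not given in the sources used here, so reads of these stretches are uncertain. Ikzf2, Ikzf4 and Nrp1 share 144, 37 and 80 exon bases with the noncoding genes Gm29114, Gm26876 and Mir1903.

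Neither interleukin 2 receptor chain among the identity genes was called. Il2ra (chromosome 2, 11642807 to 11693193), the chain that gives high affinity, had 454 CPM in wt 1, 401 in flox 1, 503 in wt 2 and 510.1 in flox 2. Both libraries numbered 2 were above both numbered 1, with a log2 fold change of 0.24 (SE 0.09, interval 0.03 to 0.46, adjusted p = 0.303 by edgeR's quasi-likelihood test). Il2rb (chromosome 15, 78479256 to 78495271), the signalling chain shared with interleukin 15, had 1267, 1235, 1294 and 1359 CPM in the same order. Its log2 fold change of 0.08 had an interval of -0.08 to 0.25, and its highest library was 1.10 times its lowest, the narrowest spread of the 9 genes.

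Among 12 further genes of the interleukin 2 pathway, 11 were tested and 0 passed the quasi-likelihood test by title number. Of the 11, 4 had an unadjusted p under 0.05, against 13.6% of all tested genes. DESeq2 called 2, the likelihood ratio test 1 and limma-voom 0. Of the 3 with the smallest p, Pim1, a kinase gene induced by STAT5, had 114 and 118 CPM in wt 1 and flox 1 and 78.2 and 85.1 in wt 2 and flox 2 (log2 fold change -0.50, SE 0.09, adjusted p = 0.0593 by edgeR). Bcl2, which encodes a survival protein, had 272 and 241 CPM against 323 and 333 (0.35, SE 0.09, adjusted p = 0.149 by edgeR). The common receptor chain Il2rg had 1339 and 1279 CPM against 1479 and 1520.0 (0.20, SE 0.07). Both libraries numbered 2 were below both numbered 1 for Pim1 and above for Bcl2 and Il2rg, none of which was called by the quasi-likelihood test. Il2 itself was below the filter, at 0.0819 to 0.677 CPM.

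Ctla4 was the identity gene with the largest difference. This gene (chromosome 1, 60887000 to 60915832) had 3342 CPM in wt 1 and 3344 in flox 1, but 1627 in wt 2 and 2080.2 in flox 2. The first pair was almost equal, and both libraries numbered 2 were far below it. The means were 3343 ± 1.54 and 1853 ± 321 CPM (SD, n = 2), and the log2 fold change was -0.85 (SE 0.12, interval -1.14 to -0.56, adjusted p = 0.0270 by edgeR's quasi-likelihood test). The ratio of wt 1 to wt 2 was 2.05 (95% counting interval 2.03 to 2.08), and the ratio of flox 1 to flox 2 was 1.61 (1.59 to 1.63). These intervals, here and below, cover counting error only. By label the log2 fold change was 0.13 (SE 0.42, interval -1.002 to 1.26), where the spread between libraries of 1 label was wider than the difference.

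The Ctla4 call depended on having 2 libraries numbered 1. Without wt 1 the log2 fold change was -0.85 with an adjusted p = 0.178 by edgeR, and without flox 1 it was -0.85 with an adjusted p = 0.106. Without wt 2 it was -0.68 (adjusted p = 0.00240) and without flox 2 it was -1.04 (adjusted p = 0.000431), both by edgeR. The lone library of a group was then assumed to vary like the others.

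**Figure D2:**
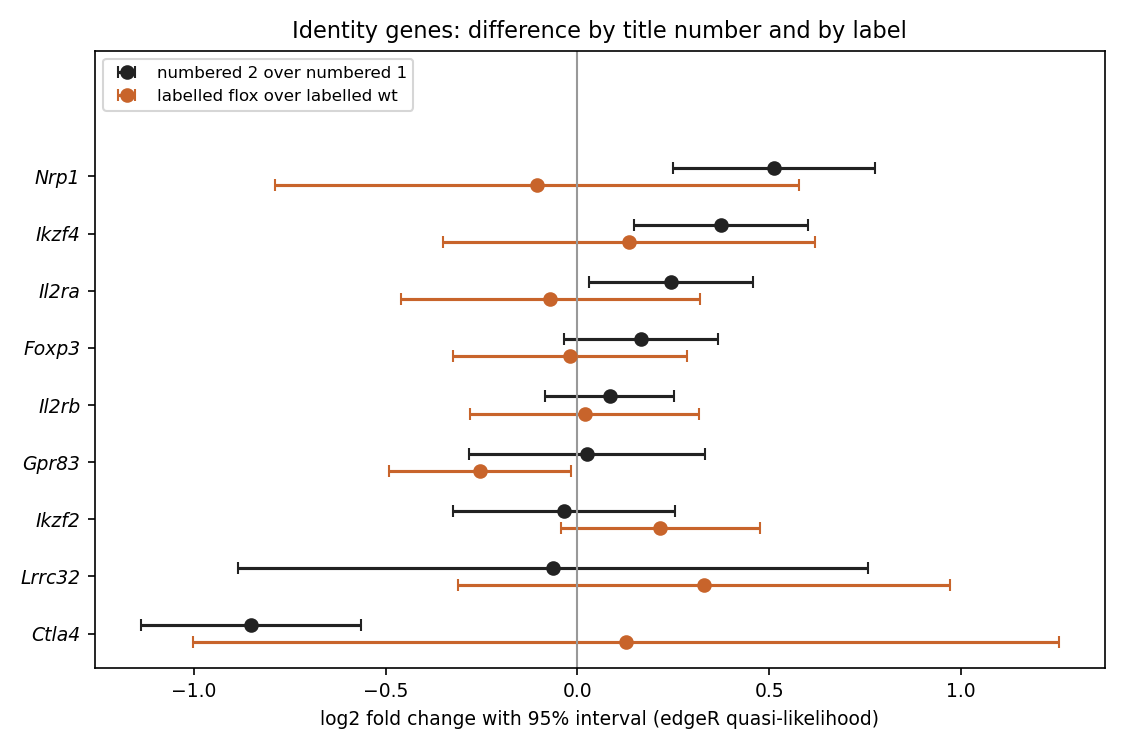
Log2 fold changes of the 9 identity genes with 95% intervals from edgeR's quasi-likelihood fit, in black for libraries numbered 2 over libraries numbered 1 and in orange for labelled flox over labelled wt. The black interval of Ctla4 lies between -1.14 and -0.56, and its orange interval spans 0.

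Other genes of the costimulation pathway were not called by title number in edgeR's quasi-likelihood test. Of 7 such genes, all tested, 0 passed edgeR's quasi-likelihood test (1 had an unadjusted p under 0.05; DESeq2 and the likelihood ratio test called 1, limma-voom 0). That gene was Pdcd1, which encodes the inhibitory receptor PD-1, with 720.1 and 676 CPM in wt 1 and flox 1 and 312 and 441 in wt 2 and flox 2 (log2 fold change -0.89, SE 0.17, adjusted p = 0.0804 by edgeR). Def6, whose product takes part in CTLA-4 traffic, had 142 and 135 CPM against 167 and 145, and the ligand gene Cd80 had 3.99 and 4.14 against 1.38 and 3.48. Neither passed the test (adjusted p = 0.541 and 0.614 by edgeR).

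Some immediate early genes had lower values in the same libraries as Ctla4, without a call by edgeR's quasi-likelihood test. Fos had 1501 and 1493 CPM in wt 1 and flox 1 and 652 and 954 in wt 2 and flox 2 (log2 fold change -0.90, SE 0.19, adjusted p = 0.123 by edgeR). Fosb had 110.4 and 129.5 CPM against 57.8 and 75.8, Dusp1 had 4134 and 4097 against 2650.1 and 3265, and Junb had 8729.9 and 8193 against 5673 and 7234. None of the 13 heat shock and immediate early genes passed edgeR's quasi-likelihood test by title number. An unadjusted p under 0.05 was found for 4, against 13.6% of all tested genes. Both libraries numbered 2 were below both numbered 1 for 5 of the 13, against 22.5% of all tested genes. They were above for 3, against 22.7%, and the others overlapped. DESeq2 called 3 (Fos, Fosb and Dusp1), the likelihood ratio test 2 (Fos and Fosb) and limma-voom 0. Fos, Fosb, Dusp1 and Junb had the smallest p of the 13. Their part in the Ctla4 result was not tested.

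Eos and Helios, of 1 protein family, had different patterns over the 4 libraries. Ikzf4 (chromosome 10, 128630843 to 128645991) had 188 CPM in wt 1 and 209 in flox 1, against 247 in wt 2 and 269 in flox 2. The libraries numbered 2 were higher without overlap, by a factor of 1.31 within labelled wt (counting interval 1.26 to 1.37) and 1.28 within labelled flox (1.24 to 1.33). The log2 fold change of 0.37 (SE 0.09, interval 0.15 to 0.60) was not called by edgeR's quasi-likelihood test (adjusted p = 0.142), whereas DESeq2 called it (adjusted p = 0.0354). Ikzf2 (chromosome 1, 69531214 to 69687245) had 190.3, 209, 174 and 215 CPM in wt 1, flox 1, wt 2 and flox 2, with overlapping groups by number and a log2 fold change of -0.04 (SE 0.12, interval -0.33 to 0.25). By label both flox libraries were above both wt libraries for Ikzf2 (log2 fold change 0.22, interval -0.04 to 0.48), as for 13.2% of all tested genes.

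Of 20 genes encoding partners or regulators of FOXP3, all tested, 0 passed by title number in edgeR's quasi-likelihood test. An unadjusted p under 0.05 was found for 8, against 13.6% of all tested genes. DESeq2 called 4, the likelihood ratio test 2 and limma-voom 0. Both libraries numbered 2 were below both numbered 1 for 10 of the 20, against 22.5% of all tested genes, and above for 2. Their median log2 fold change was -0.18. Irf4, a factor of effector regulatory T cells, had 183 and 152 CPM in wt 1 and flox 1 and 91.7 and 117 in wt 2 and flox 2 (-0.68, SE 0.15, adjusted p = 0.100 by edgeR). Foxo1, a forkhead factor, had 691 and 688 CPM against 558 and 543 (-0.33, SE 0.07), and Ikzf3, which encodes the Ikaros family member Aiolos, had 301 and 285 against 228 and 171 (-0.55, SE 0.14). DESeq2 called both Foxo1 and Ikzf3, and Irf4 as well, and the likelihood ratio test called Irf4 and Ikzf3.

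**Figure D3:**
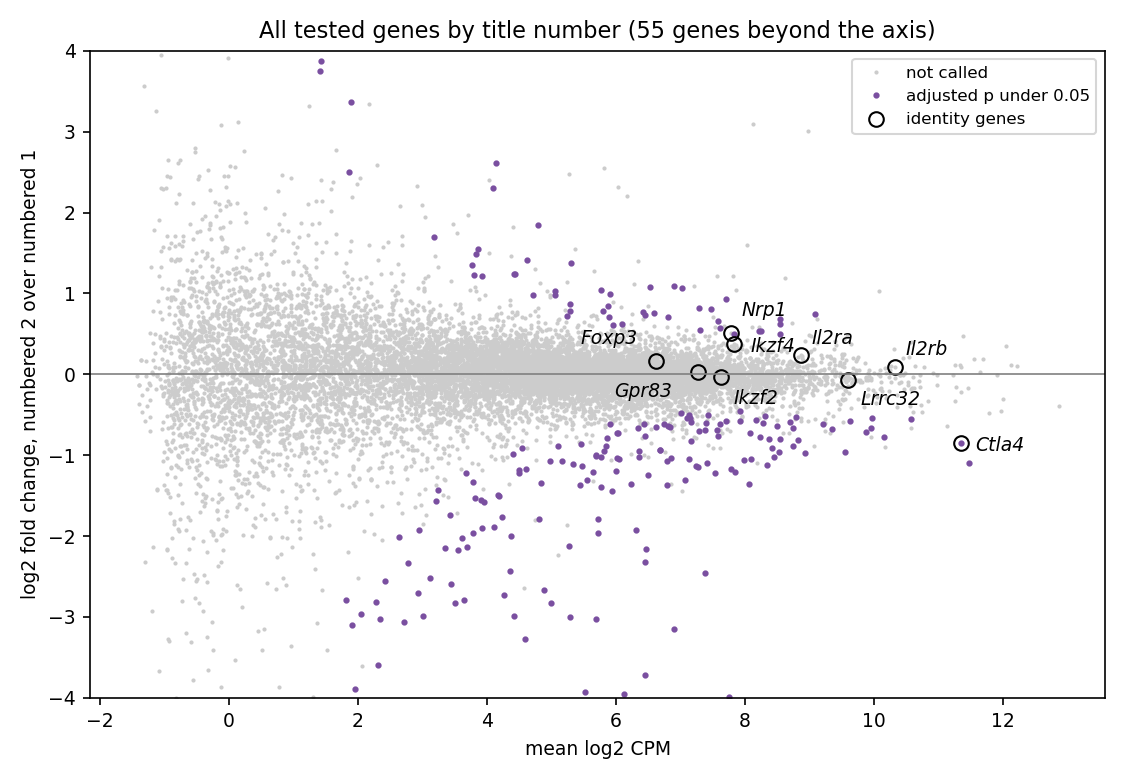
Log2 fold change of libraries numbered 2 over libraries numbered 1 against mean log2 CPM for 13022 tested genes, with called genes in purple and identity genes circled; 55 genes lie beyond the axis limits of -4 and 4. Ctla4 is the only circled gene in purple.

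The surface receptor genes Nrp1 and Gpr83 also differed in pattern. Nrp1 (chromosome 8, 128358604 to 128503363), a semaphorin and growth factor receptor used as a mark of thymus-derived regulatory T cells, had 199 CPM in wt 1 and 164 in flox 1, against 258 in wt 2 and 261 in flox 2. Both libraries numbered 2 were higher, at 259 ± 1.94 against 182 ± 24.6 CPM (SD, n = 2). The log2 fold change was 0.51 (SE 0.11, interval 0.25 to 0.78), and the adjusted p = 0.0930 by edgeR's quasi-likelihood test missed the threshold. DESeq2 (adjusted p = 0.00355) and the edgeR likelihood ratio test (adjusted p = 0.0148) called it. Gpr83 (chromosome 9, 14860210 to 14870789), which encodes a G protein-coupled receptor, had 166, 139.9, 169.8 and 141 CPM in wt 1, flox 1, wt 2 and flox 2. Both libraries labelled flox were below both labelled wt, as for 13.8% of all tested genes, and the groups by number overlapped. The log2 fold change by label was -0.26 (SE 0.09, interval -0.49 to -0.02, adjusted p = 1.00 by edgeR), and by number it was 0.03 (interval -0.28 to 0.33).

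Lrrc32 (chromosome 7, 98489283 to 98502181) had its 2 libraries with low Maf on either side of the pair with high Maf, as Ikzf2 did over a narrower range. It had 829 CPM in wt 1 and 752 in flox 1, against 541 in wt 2 and 971 in flox 2. The library labelled wt 2 was 0.652 times wt 1 (counting interval 0.637 to 0.668), and flox 2 was 1.29 times flox 1 (1.27 to 1.32). By number the log2 fold change was -0.06 with a wide interval of -0.89 to 0.76. Without flox 2 it was -0.55 and was called (adjusted p = 0.0189 by edgeR), and without wt 2 it was 0.30 (adjusted p = 0.133), so the direction depended on which library was left out. The library labelled flox 2 was also the one with high heat shock transcripts, whose part in this value was not tested.

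**Figure D4:**
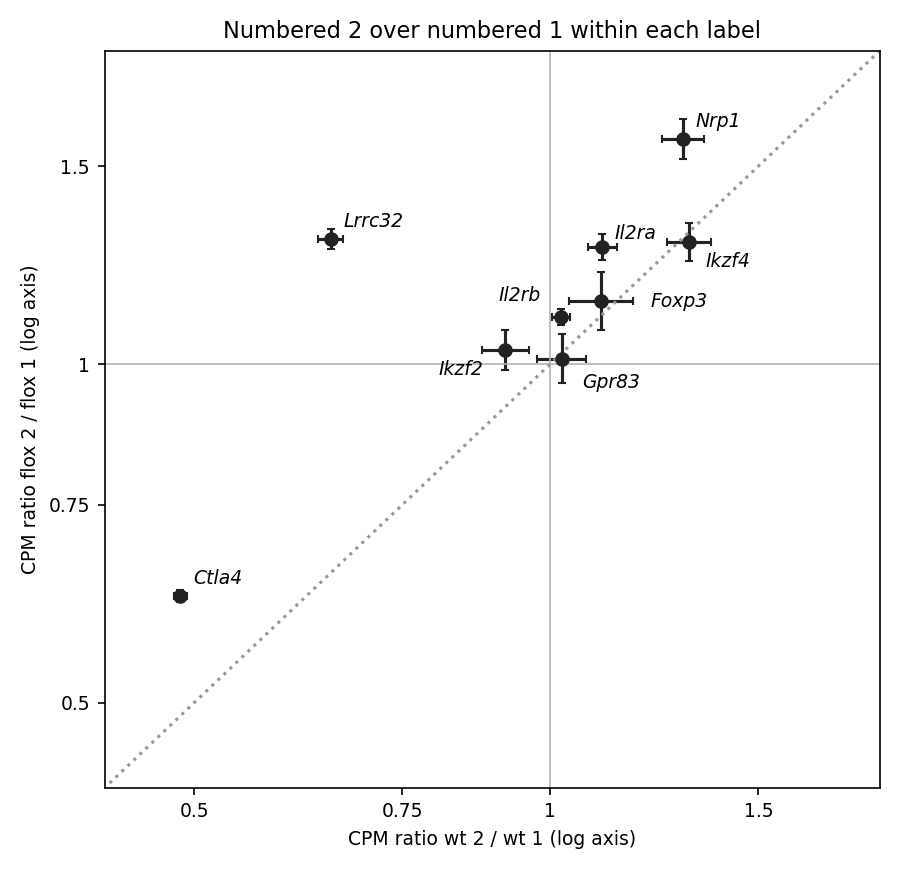
CPM ratio of the library numbered 2 to the library numbered 1 within labelled wt (horizontal) and within labelled flox (vertical), on log axes, with 95% counting intervals. The dotted line marks equal ratios; Ctla4 is low on both axes, at 0.487 and 0.622, and Lrrc32 lies far above the line at 0.652 and 1.29.

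Of 11 genes that work with GARP or neuropilin 1, 9 were tested. An unadjusted p under 0.05 was found for 4 of the 9, against 13.6% of all tested genes. DESeq2 and the likelihood ratio test each called 3 (Itgb8, Itgav and Plxna1), and limma-voom called 1. By edgeR's quasi-likelihood test 1 passed by title number, lower in the libraries numbered 2, as were 1.41% of all tested genes. It was Itgb8, the integrin chain that releases active transforming growth factor beta from GARP, with 77.8 and 70.5 CPM in wt 1 and flox 1 and 34.9 and 41.98 in wt 2 and flox 2 (log2 fold change -0.95, SE 0.13, adjusted p = 0.0256 by edgeR). Its partner chain Itgav had 255 and 227 CPM against 131 and 169 (-0.68, SE 0.14, adjusted p = 0.0855 by edgeR), and Plxna1, a semaphorin coreceptor, had 25.0 and 19.2 against 12.1 and 11.5 (-0.90, SE 0.19). Plxna4 and Sema3a were below the filter.

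Further genes of the regulatory T cell signature gave calls in both directions. The list held 18 symbols, of which 17 were present and tested. By title number 1 rose, 2 fell and 14 were not called by edgeR's quasi-likelihood test, where 1.81% of all tested genes were called. An unadjusted p under 0.05 was found for 8 of the 17, against 13.6% of all tested genes. The same 3 genes were called by limma-voom. DESeq2 and the likelihood ratio test each called 5, adding Itgae and Icos. Itgae, an integrin chain gene of tissue T cells, had 568 and 860.0 CPM in wt 1 and flox 1 and 1359 and 1561 in wt 2 and flox 2 (log2 fold change 1.03, SE 0.22, adjusted p = 0.149 by edgeR's quasi-likelihood test). Icos, a costimulatory receptor gene, had 1183 and 1323 CPM against 608 and 858 (-0.77, SE 0.17, adjusted p = 0.139). Swap70, which encodes a signalling adaptor, rose from 104 and 122 CPM in wt 1 and flox 1 to 196 and 203 in wt 2 and flox 2 (log2 fold change 0.82, SE 0.10, adjusted p = 0.0189 by edgeR). Nt5e, which encodes the adenosine-producing enzyme CD73, fell from 1518 and 1374 CPM to 749.7 and 939.5 (-0.78, SE 0.12, adjusted p = 0.0380). Tigit, an inhibitory receptor gene, fell from 142 and 139 CPM to 81.5 and 97.2 (-0.65, SE 0.11, adjusted p = 0.0436). These lists, like the identity genes, were drawn up with earlier results of these data known and are no independent support.

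Genes used as marks of conventional T cells were not called. Of 12 genes 11 were tested, and 0 passed edgeR's quasi-likelihood test by title number (2 had an unadjusted p under 0.05; DESeq2, the likelihood ratio test and limma-voom also called 0). Actn1 had 44.9 and 37.9 CPM in wt 1 and flox 1 and 62.2 and 51.2 in wt 2 and flox 2, and Ifng, the type 1 cytokine gene, had 4.28 and 5.37 against 6.08 and 20.7. The level of Ifng in flox 2 stood apart from the other 3 libraries.

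General T cell genes were level in the main. Of 8 tested 0 passed by edgeR's quasi-likelihood test (2 had an unadjusted p under 0.05; DESeq2 called 1, the other tools 0), and their summed level was 7013, 6618, 6610.2 and 7008 CPM in wt 1, flox 1, wt 2 and flox 2. Cd5, a brake on T cell receptor signals, had 569 and 590 CPM in the libraries numbered 1 and 751 and 792 in those numbered 2 (0.41, SE 0.08, adjusted p = 0.0613 by edgeR). The receptor chain gene Cd247 had 385 and 340 against 285 and 308, and the kinase gene Lck had 1789 and 1736 against 1526 and 1639.

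**Figure D5:**
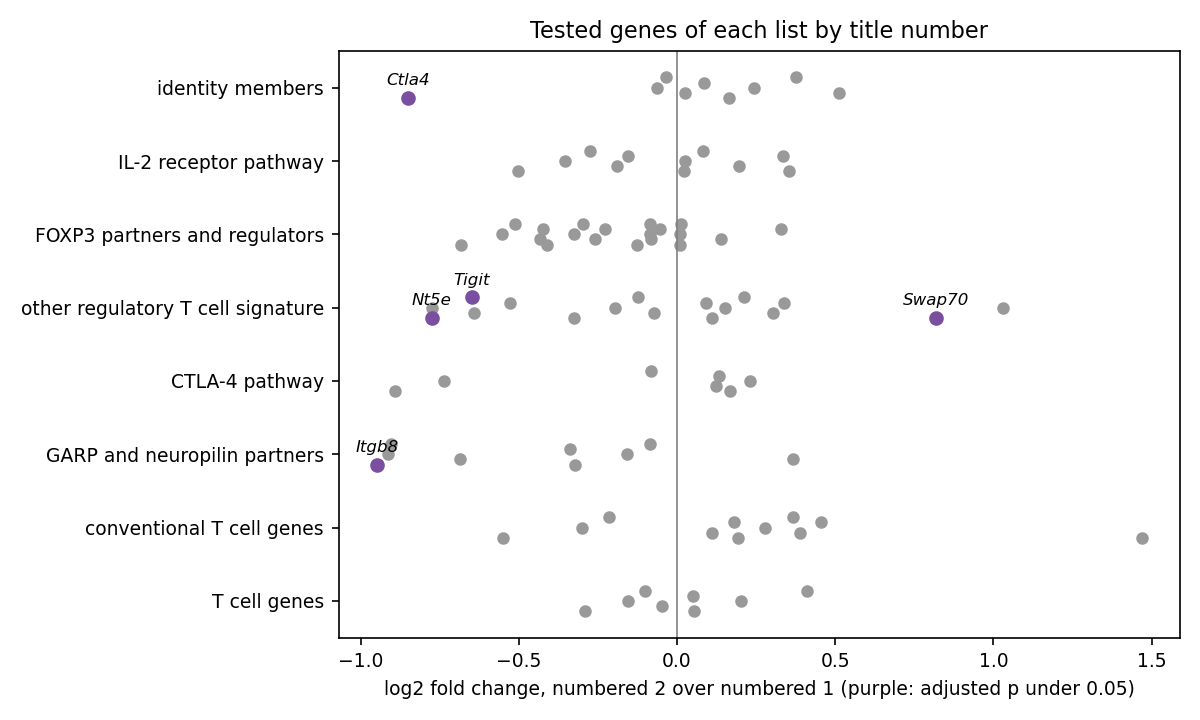
Log2 fold changes of libraries numbered 2 over libraries numbered 1 for the tested genes of each list, 1 point a gene, with genes called at an adjusted p under 0.05 in purple and named. In the list of identity genes, Ctla4 is the single called point at -0.85 and the other 8 lie between -0.06 and 0.51.

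Of the marker lists of other cells, 1 held a call by title number. By title number, the 7 tested B cell markers, 8 myeloid and dendritic markers and 9 epithelial markers held 0 calls by edgeR's quasi-likelihood test. In that comparison 0 of them had an unadjusted p under 0.05, and DESeq2, the likelihood ratio test and limma-voom also called 0. By label 1 epithelial marker had an unadjusted p under 0.05, and 0 were called. Csf1r was at 0 in wt 1. Of 5 tested markers of CD8 T and natural killer cells 1 was called, Klrb1c, where 0.399% of all tested genes were called higher. It was higher in wt 2 and flox 2 at 44.9 and 68.5 CPM against 22.6 and 21.3 in wt 1 and flox 1 (log2 fold change 1.37, SE 0.21, adjusted p = 0.0368 by edgeR's quasi-likelihood test). DESeq2 and the likelihood ratio test also called Klrb1c, and limma-voom called 0 of this list. The summed level of the 6 markers in that list was 54.8 and 61.1 CPM in wt 1 and flox 1 and 84.3 and 102 in wt 2 and flox 2, a difference carried in the main by Klrb1c. Prf1 was also higher in both, at 16.4 and 11.4 CPM against 10.7 and 11.3, and was not called. Cd8a had 8.56 and 11.02 CPM against 5.19 and 9.19, and Cd8b1 had 12.7 and 16.6 against 17.1 and 12.1. The defining natural killer gene Ncr1 was below the filter. It was at 0 counts in both libraries numbered 2, where 3 counts would be 0.148 and 0.145 CPM, and at 1 and 3 counts in wt 1 and flox 1. The part of such cells in the values of the identity genes was not tested.

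The profile of each identity gene over the 4 libraries was set against 9080 other genes (mean log2 CPM of 3 or more), by the root mean square distance of centred log2 CPM. Among the 3 nearest to Ctla4 were Grhl1 (distance 0.04), which had 44.1 and 45.0 CPM in wt 1 and flox 1 and 22.2 and 26.2 in wt 2 and flox 2, and 4632428N05Rik (0.05). The nearest to Lrrc32 was D030056L22Rik (0.05), and the nearest to Nrp1 was Zbtb7b (0.03). The nearest to Foxp3, Il2ra and Il2rb were Mllt3 (0.0031), 0610012G03Rik (0.01) and Vamp4 (0.0044), and those to Ikzf2, Ikzf4 and Gpr83 were Wbp4 (0.0083), Polr1b (0.0097) and 1110059G10Rik (0.0076). All distances come from the same 4 libraries, and near profiles are a description only.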

How the data were processed

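RNA from sorted cells was sequenced in 4 libraries. Libraries were made with a low-input kit that amplifies cDNA, per the labels' protocols. The deposited raw counts cover 24061 gene rows; 5 counter summary rows, 66.6% to 67.2% of each column, entered neither library sizes nor tests. A second table by the authors holds normalized values for 10618 genes, a signal that is never negative. The submitters' processing notes name mm10, edgeR 3.14, HTSeq 0.6.1 and TopHat2 2.1.1; settings, annotation and strand have no entry in the sources used here.

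Tests used edgeR 4.0.16 (R 4.3.3): filterByExpr left 13022 genes, library sizes were scaled by TMM, and glmQLFit (robust) with glmQLFTest was run on all 4 libraries, by title number and by labelled genotype, with Benjamini-Hochberg adjustment over all tested genes and a threshold of 0.05. Each standard error was taken as the size of the log2 fold change over the square root of its F, with 95% intervals on the fit's degrees of freedom. With 2 libraries against 2, an exact permutation test cannot go below 0.333 (two-sided), so none was run. Ratio intervals are exact binomial. Coordinates and merged exon lengths come from GENCODE M21 (mm10), in which all 9 symbols matched.

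Genes named were the 9 members, Maf, and from each further list its called genes (the 3 with the smallest p where fewer than 3 were called), Cd4 and Cd3e, up to 4 genes of each other-cell or handling list, and the nearest profiles. Gm8615, Plxna4, Sema3a, Il2, Itgae, Icos, Prf1, Hspa1a and Hsph1 were chosen after their values were seen. Some genes that this rule names are not reported here. Members and lists were chosen with earlier results of these data known. Tested on simulated counts with 200 changed genes (13022 run), the fit called 54 of 100 genes changed 2-fold by number and 31 of 100 by label, and 11 and 18 of 12822 unchanged genes. Alternatives were DESeq2 1.42.0, limma-voom (limma 3.58.1), the likelihood ratio test, other scalings and filters, a non-robust fit, a block and leaving out each library.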

Additional observations from a re-analysis of the deposited data

Results flagged for a closer look

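Lrrc32 and Ikzf2 were lower in the library numbered 2 than in the library numbered 1 within labelled wt and higher within labelled flox. For Lrrc32 the ratio of CPM was 0.652 within labelled wt and 1.29 within labelled flox. For Ikzf2 it was 0.917 within labelled wt (counting interval 0.876 to 0.960) and 1.03 within labelled flox (0.988 to 1.07). With 1 library for each combination of label and number, the difference was not tested.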

How the results depend on the processing

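By title number, the main test called 236 genes and 1 identity gene. DESeq2 called 640 genes (3 identity genes: Ctla4, Ikzf4 and Nrp1), the likelihood ratio test 608 (2: Ctla4 and Nrp1) and the fit with no filter on low counts 589 (3: the same ones as DESeq2); the cause was not tested. Leaving out each library gave 46 (without wt 1) to 525 genes (without wt 2), with 116 without flox 1 and 504 without flox 2, and 0 to 2 identity genes. By label, where 1 gene was called, DESeq2 and the likelihood ratio test called 12 each, the fit with no filter 2, and limma-voom 0 (263 at an unadjusted p under 0.05); each fit without 1 library called 0 (202 to 430 at an unadjusted p under 0.05). All alternatives by label called 0 identity genes.

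Ctla4 was lower by title number in all 14 alternatives and lost its call in 2 of them, without wt 1 and without flox 1. With library totals only, the log2 fold change of Ikzf2 by number was 0.015 and that of Il2rb by label -0.0065, both of opposite sign to the main values. Leaving out each library turned the sign by number for Gpr83 (-0.11 to 0.16), Ikzf2 (-0.19 to 0.11) and Lrrc32 (-0.55 to 0.30). It did so by label for Ctla4 (-0.30 to 0.74), Foxp3 (-0.11 to 0.073), Ikzf4 (-0.056 to 0.35), Il2ra (-0.25 to 0.095), Il2rb (-0.051 to 0.088) and Nrp1 (-0.47 to 0.19). No value of changed sign was called; Lrrc32 at -0.55, without flox 2, kept its sign and was called.

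The samples share a title number that no label ties to an animal, litter or day. With the replicate block the comparison by label called 1 gene and 0 identity genes; differences between the libraries numbered 1 and 2 correlated at 0.26 across genes between the labels. With the label as a block, the comparison by number called 212 genes and 1 identity gene (Ctla4). Scalings moved the median log2 fold change of all genes by number from 0.01 to at most 0.06. Of simulated 2-fold changes, in genes drawn at random from all 13022 at any level, 54 of 100 were called by number. A difference of that size can therefore be missed among all tested genes. The rate for genes at the level of the identity genes was not taken apart.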
